A study of Mus musculus with 4 samples.

Results

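Antioxidant, NRF2 and iron storage genes were examined in a JQ1-sensitive and a JQ1-resistant mouse lymphoma line. The list holds 47 named genes, chosen by function, and each was looked up by its Ensembl identifier in a count table of 16591 genes. Of the 47, 43 had a row, and 41 of these carried enough reads to be tested. Slc40a1 (the iron exporter ferroportin), Srxn1, Ephx1 and Gstm5 had no row under their identifiers and were not analysed here, and Nqo1 and Mgst2 were below the filter on low counts.

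RNA sequencing counts came from 4 libraries, 2 of the sensitive line (JQ1S) and 2 of the resistant line (JQ1R). JQ1 displaces the BET bromodomain proteins from acetylated chromatin. Both lines are Eμ-Myc cells on the C57BL/6 strain, in which a Myc transgene is driven by the immunoglobulin heavy-chain enhancer and gives rise to B-lineage lymphoma. Both were grown as early passage cultures in medium that contained 2-mercaptoethanol, a thiol reductant, and asparagine, and the labels name no drug at harvest. The labels do not say how resistance arose. Each kind of cell is represented by a single line, and whatever else distinguishes these lines cannot be told apart from resistance. "Sensitive" and "resistant" refer to these lines.

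NRF2 (Nfe2l2) is a transcription factor that KEAP1 normally marks for degradation. When electrophiles or oxidants modify KEAP1, NRF2 accumulates and activates genes for glutathione synthesis, the thioredoxin system, NADPH production, haem breakdown and ferritin. Ferritin stores iron in a form that cannot feed radical chemistry, and the transferrin receptor brings iron into the cell, a demand that is high in proliferating lymphoid cells.

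Total counts per library ranged from 10346007 to 13048103, so 1 read corresponded to 0.0771 to 0.0972 CPM (counts scaled to a library of 1000000 reads, with library sizes scaled by TMM). The 2 sensitive libraries differed from each other more than the 2 resistant libraries did, with a chi-square of 4.09 and 1.79 per degree of freedom over genes, and both pairs differed beyond sampling noise. Apart from Vpreb1, which had 4 to 7 reads per library, the B-lineage markers were expressed in both lines. The summed level of all 10 was 3580 and 3671 CPM in the sensitive pair, against 3935 and 3814 CPM in the resistant pair. Of 9 tested markers 1, Cd22, was called higher, against 2.20% of all genes tested. In edgeR 4 of the 9 had an unadjusted p below 0.05, all with higher values, against 9.10% of all genes. The part of these sums in the results for the list was not tested. Of 12 macrophage and myeloid markers 7 had a row, with a summed level of 11.1 to 13.1 CPM over the 4 libraries. Adgre1, Lyz2, Fcgr1, C1qa and C1qb had none. Erythroid markers summed to 0.505 to 0.680 CPM in 2 of 10 genes. Of 8 T-cell markers 3 had a row and summed to 14.5 to 16.2 CPM, nearly all from Cd2. Cd3d had 0 to 3 reads per library and Lck 4 to 8. Of 8 stromal markers 2 had a row and summed to 87.2 to 99.3 CPM, nearly all from Pecam1, while Thy1 had 1 to 3 reads per library. In these bulk samples, fewer cells of a type and less RNA per cell cannot be told apart.

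The clearest differences within the list were lower levels of the ferritin heavy chain, thioredoxin reductase 1, catalase and a mitochondrial aldehyde dehydrogenase in resistant cells, beside a higher level of the main acetaldehyde-clearing enzyme. With edgeR's quasi-likelihood test and an adjusted p below 0.05 over all genes tested, Fth1, Txnrd1, Cat and Aldh1b1 fell and Aldh2 rose. This is 5 of 41 genes (12.2%), 1 higher and 4 lower, against 445 of 11945 genes (3.73%) in the whole table, where 2.20% were higher and 1.52% lower. The genes were listed with earlier results of these data known, so the gap between these shares is a description. The median log2 change (resistant minus sensitive) was -0.05 over the 41 genes and 0.00 over all genes, and 30 of the 41 had a negative value (73.2%, against 49.1% of all genes). For 20 of the 41 genes (48.8%) the libraries of one line all lay above those of the other, close to the 47.3% of all tested genes. Of these 20, 17 were lower and 3 higher in resistant cells, where 23.2% and 24.1% of all tested genes were. At an unadjusted p below 0.05 there were 11 of the 41 genes, against 16.9% of all genes, with 10 lower (7.75% of all genes) and 1 higher (9.10%). A single called change reached 1.5-fold, that of Aldh1b1.

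**Figure D1:**
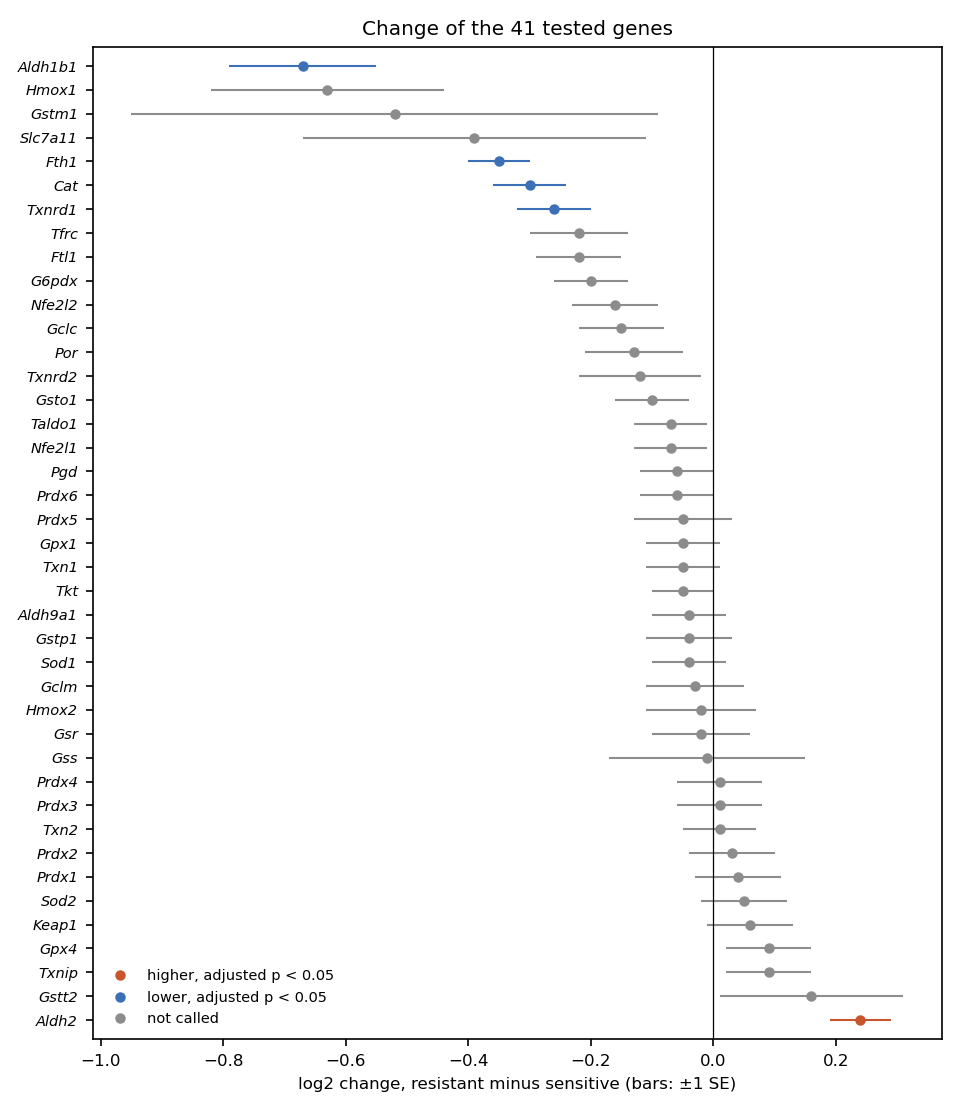
Log2 change, resistant minus sensitive, of each of the 41 tested genes (points) with 1 SE on either side (bars), ordered by value. Blue points were called lower and the orange point higher at an adjusted p below 0.05. Most points lie left of 0, from -0.67 for Aldh1b1 to 0.24 for Aldh2.

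**Figure D2:**
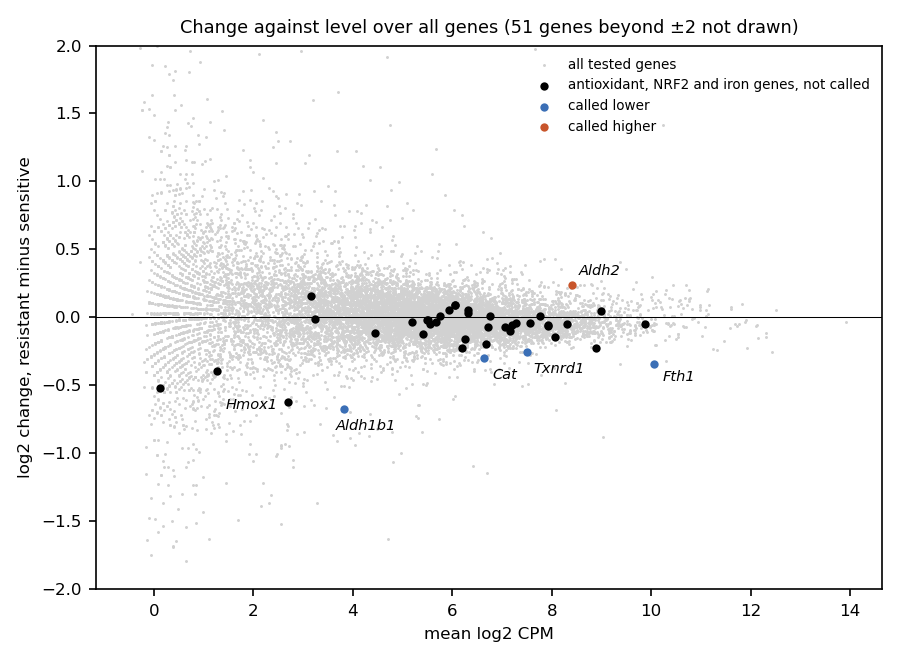
Log2 change against mean log2 CPM for all tested genes (grey) with the 41 genes drawn over them, 5 of them coloured by their call. The y axis ends at ±2, which leaves 51 genes undrawn. The genes of the list lie near 0, and the called genes sit at the edge of the cloud for their level.

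Of 3 tested genes of iron storage and import 1, Fth1, was called lower, as were 1.52% of all genes tested. Ftl1 and Tfrc had lower values in both resistant libraries without passing the test. All 3 had lower values without overlap between the lines, as did 23.2% of all genes tested. Fth1 encodes the ferritin heavy chain, which oxidises iron for storage. It stood at 1154 and 1237 CPM in the sensitive pair, against 963 and 918 CPM in the resistant pair. Both resistant libraries were below both sensitive ones. The level was 1.27-fold lower (1196 ± 58.3 against 941 ± 31.5 CPM, mean ± SD, n = 2), and its log2 change of -0.35 ± 0.05 (SE) had an adjusted p = 0.00103 in edgeR. The call held under all 10 alternative analyses, and the change ranged from -0.40 to -0.30 when a library was left out. Fth1 lies on GRCm38 chromosome 19 at 9980598 to 9985098. Per kilobase of annotated exon it had the highest level of the listed genes, with a mean of 308 RPKM, rank 201 among genes of the table with an annotated length. Exons are summed over all transcripts, so genes with long minor transcripts are understated on this scale.

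Ftl1 encodes the ferritin light chain, which helps the iron core to form. It stood at 75.6 and 81.2 CPM in the sensitive pair, against 65.8 and 68.2 CPM in the resistant pair. The groups did not overlap, but the difference was not called (log2 change -0.22 ± 0.07, adjusted p = 0.0948 in edgeR and 0.595 in DESeq2). The change ran from -0.28 without sensitive replicate 1 to -0.18 without sensitive replicate 2. Ftl1 was called only without sensitive replicate 1, with only the resistant pair to give the spread. Counts of Ftl1 are uncertain, since near-identical copies can split its reads, and 26.5% of its exonic bases overlap Gm10252 on the other strand. The copy Ftl1-ps1 carried more reads than Ftl1 itself, at 157 and 181 CPM in the sensitive pair, against 150 and 144 CPM in the resistant pair (log2 change -0.20, adjusted p = 0.134). Ftl1-ps2 stood between 8.16 and 11.7 CPM. Summed over the 3 loci the levels were 245 and 273 CPM in the sensitive pair, against 225 and 220 CPM in the resistant pair, a log2 ratio of means of -0.22, with no overlap between the lines.

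Tfrc encodes the transferrin receptor. It stood at 559 and 459 CPM in the sensitive pair, against 423 and 450 CPM in the resistant pair. Sensitive replicate 1 was well above the other 3 libraries, and sensitive replicate 2 lay just above resistant replicate 2. The log2 change was -0.22 ± 0.08 and was not called (adjusted p = 0.125 in edgeR). Leaving out sensitive replicate 1 gave -0.07, and leaving out sensitive replicate 2 gave -0.36, where Tfrc was called (adjusted p = 6.94e-13) with only the resistant pair to give the spread.

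These 3 mRNAs are known for iron-responsive elements, hairpins bound by the iron regulatory proteins when iron is scarce. Binding near the start of a ferritin mRNA blocks its translation, and binding in the 3′ UTR of Tfrc protects the mRNA from decay. The elements are shown because they are the shared sequence feature through which these transcripts are known to respond to iron. GENCODE M21 transcripts were searched on the mRNA strand for C, any 5 bases, the loop CAGTGN and another 5 bases able to pair with the 5 before the loop (Watson-Crick or G-U). The pattern was in the 5′ UTR of 24 of 12142 coding genes of the table (0.198%) and in the 3′ UTR of 102 (0.84%). Within the list it was in Fth1, Ftl1 and Tfrc, with 4 matches in Tfrc. Each site is printed as 29 bases, 5′ to 3′ on the transcribed strand with T for U, and capitals mark the loop bases. The matches lie on GRCm38 at chr19:9982732-9982760 (plus strand) for Fth1 and at chr7:45459779-45459807 (minus strand) for Ftl1. Those of Tfrc lie on the plus strand at chr16:32631219-32631247, chr16:32631598-32631626, chr16:32631663-32631691 and chr16:32631710-32631738, in the order shown.
Fth1: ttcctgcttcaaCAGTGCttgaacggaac
Ftl1: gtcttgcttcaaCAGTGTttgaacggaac
Tfrc site 1: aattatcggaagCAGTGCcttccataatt
Tfrc site 2: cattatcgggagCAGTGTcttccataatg
Tfrc site 3: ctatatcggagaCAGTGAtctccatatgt
Tfrc site 4: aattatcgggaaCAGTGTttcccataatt
A match describes the sequence only, and RNA counts do not measure translation.

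Among 20 tested genes of iron handling outside the list, 1 rose and 1 fell (10.0% called, against 3.73% of all genes tested), and their median log2 change was -0.03. Fbxl5 encodes the iron-sensing ubiquitin ligase subunit that marks iron regulatory protein 2 for degradation. It stood at 108 and 104 CPM in the sensitive pair, against 130 and 141 CPM in the resistant pair, a log2 change of 0.35 ± 0.06 (adjusted p = 0.00362 in edgeR, or 0.152 without resistant replicate 2). Slc39a14, an importer of iron not bound to transferrin and of other metals, stood at 53.5 and 48.2 CPM and at 37.8 and 39.8 CPM (-0.39 ± 0.08, adjusted p = 0.0105, or 0.121 with DESeq2 and 0.113 without resistant replicate 1). Both genes separated the lines in every library. At an unadjusted p below 0.05 there were 6 of the 20 genes, against 16.9% of all genes, and 4 of these had lower values and were not called. They were the ferrireductase Steap3 (-0.22, adjusted p = 0.0836), the iron transporter Slc11a2 (-0.22, 0.157), Aco1, which encodes iron regulatory protein 1 (-0.22, 0.149), and the iron chaperone Pcbp1 (-0.13, 0.189).

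**Figure D3:**
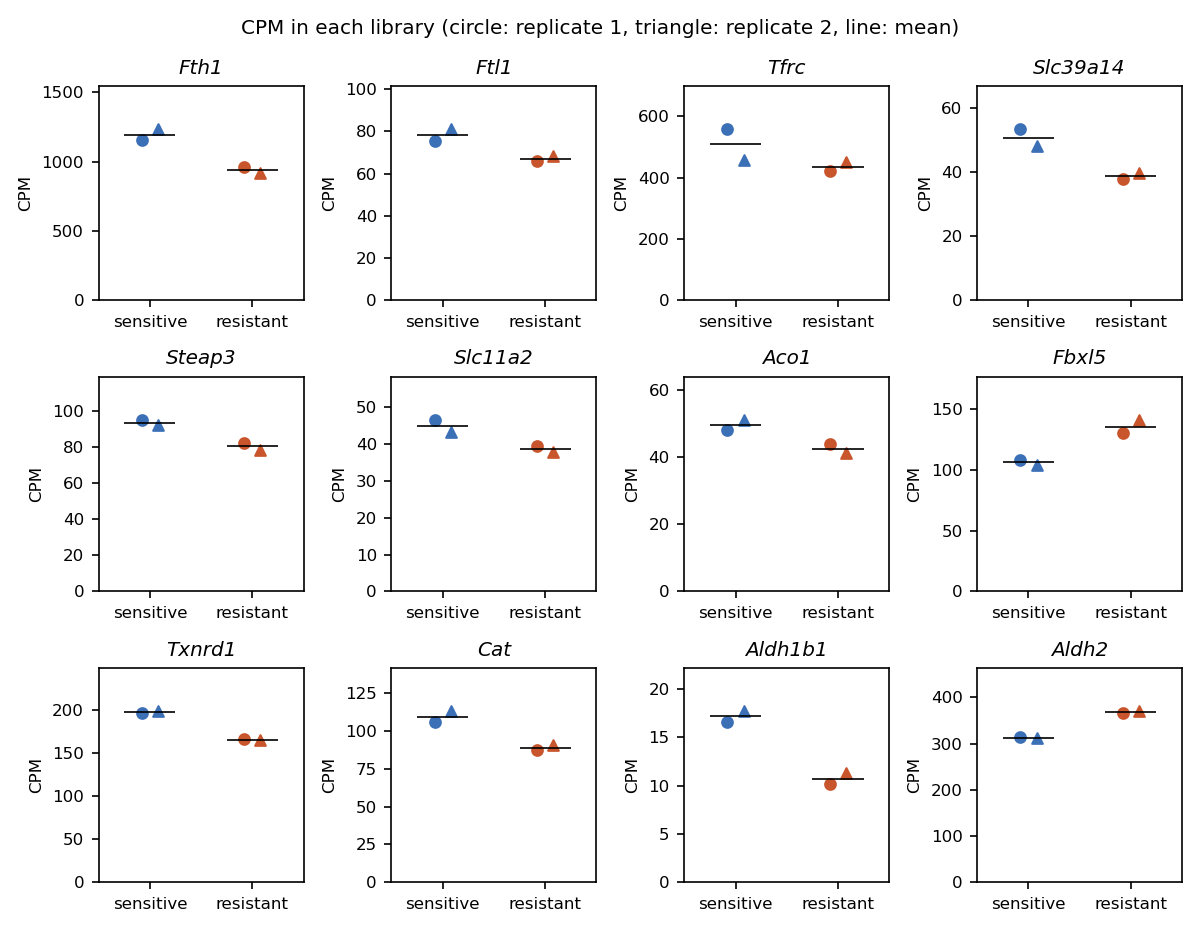
CPM of 12 genes in each of the 4 libraries, with the mean of each line as a horizontal bar and each axis starting at 0. The top row and the second row hold iron genes, and the bottom row holds the other 4 called genes of the list. The iron genes from outside the list were drawn from those with an unadjusted p below 0.05 in edgeR. All 20 tested iron-handling genes outside the list had a median log2 change of -0.03, with 13 below and 7 above 0. Fth1 falls from 1154 and 1237 to 963 and 918 CPM, whereas the sensitive libraries of Tfrc differ from each other.

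The regulators of the response were expressed in both lines and none passed the test. Of Nfe2l2, Nfe2l1 and Keap1, 0 were called in edgeR, DESeq2 or limma-voom, and 1 had an unadjusted p below 0.05. Nfe2l2 stood at 77.9 and 83.5 CPM in the sensitive pair, against 73.7 and 70.7 CPM in the resistant pair. It was lower in both resistant libraries and not called (log2 change -0.16 ± 0.07, adjusted p = 0.246 in edgeR and 0.977 in DESeq2). The change ran from -0.21 without sensitive replicate 1 to -0.11 without sensitive replicate 2. Nfe2l2 was called only without sensitive replicate 1, with only the resistant pair to give the spread. Keap1 stood at 56.8 and 62.2 CPM and at 63.2 and 60.3 CPM, with overlapping libraries (0.06 ± 0.07, adjusted p = 0.764). The log2 change of Nfe2l1, a related factor known for control of proteasome genes, was -0.07. These are mRNA levels, and NRF2 is controlled mainly through its protein.

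The classical NRF2 marker enzymes Nqo1 and Hmox1 were grouped with Hmox2 and Por. Nqo1 (0.105 RPKM over the 4 libraries) and Hmox1 (3.63 RPKM) had lower levels than Hmox2 (20.1 RPKM) and Por (10.5 RPKM). Nqo1, a quinone reductase often used to read NRF2 activity, had 5 and 1 reads in the sensitive and 0 and 2 reads in the resistant libraries, too few to compare. Hmox1, the inducible haem oxygenase that releases iron from haem, stood at 7.01 and 8.45 CPM in the sensitive pair, against 5.86 and 4.12 CPM in the resistant pair. Both resistant libraries were lower. Its log2 change was -0.63 ± 0.19 and was not called (adjusted p = 0.0952 in edgeR). Hmox1 was called with the replicate block (0.0184), without sensitive replicate 1 (0.00587) and without resistant replicate 1 (0.0145), and its change was -0.39 without resistant replicate 2. Hmox2, the constitutive haem oxygenase, differed by -0.02, and 40.2% of its exonic bases overlap Cdip1 on the other strand, so with the strand setting unknown its reads are uncertain. Por, the electron donor of cytochrome P450 enzymes, differed by -0.13 ± 0.08. In edgeR, DESeq2 and limma-voom 0 of these 3 tested genes were called, with 1 at an unadjusted p below 0.05.

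Among 22 other tested NRF2 targets and partners 2 fell and 0 rose. Ptgr1, a reductase of reactive alkenals and prostaglandins, fell from 305 and 289 CPM to 234 and 225 CPM (log2 change -0.37 ± 0.06, adjusted p = 8.11e-04 in edgeR). Blvrb, a biliverdin and flavin reductase, fell from 157 and 160 CPM to 126 and 119 CPM (-0.37 ± 0.06, adjusted p = 0.00129, or 0.0597 without resistant replicate 2). Both separated the lines in every library. The calls were 9.09% of these genes, against 3.73% of all genes tested, and the median of the 22 genes was -0.03. At an unadjusted p below 0.05 there were 5 of the 22 genes, 4 lower and 1 higher, against 16.9% of all genes. Besides Ptgr1 and Blvrb these were the autophagy receptor Sqstm1 (-0.18, adjusted p = 0.169) and the small MAF protein Mafk (-0.20, 0.195), with lower values, and the small MAF protein Maff (0.65, 0.275), with a higher value.

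Glutathione synthesis and recycling genes showed 0 calls in edgeR, DESeq2 or limma-voom among 5 tested, and 1 had an unadjusted p below 0.05. Slc7a11, the cystine importer that supplies cysteine for glutathione, was scarcely expressed, at 2.39 and 2.72 CPM in the sensitive pair, against 1.74 and 2.10 CPM in the resistant pair. The difference was not detectable at this depth (log2 change -0.39 ± 0.28, adjusted p = 0.515). Gclc, the catalytic subunit of the rate-limiting ligase, stood at 261 and 299 CPM and at 262 and 244 CPM, so that the lines overlapped. Its log2 change of -0.15 ± 0.07 (adjusted p = 0.276) became -0.25 and was called without sensitive replicate 1 (adjusted p = 5.34e-05), and was -0.05 without sensitive replicate 2. Gclm, the modifier subunit of the same ligase, stood at 35.9 and 37.2 CPM and at 36.3 and 35.1 CPM (-0.03 ± 0.08). Gsr, which regenerates reduced glutathione, stood at 46.5 and 45.7 CPM and at 43.0 and 47.6 CPM (-0.02 ± 0.08). Gss, which completes glutathione synthesis, differed by -0.01 ± 0.16.

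The enzymes that use glutathione were measured in both lines, and none passed the test. Of 6 tested peroxidases and transferases 0 were called in edgeR, DESeq2 or limma-voom, and 0 had an unadjusted p below 0.05. Gpx1, the main cytosolic glutathione peroxidase, stood at 311 and 330 CPM in the sensitive pair, against 314 and 307 CPM in the resistant pair (log2 change -0.05 ± 0.06). Gpx4, which reduces lipid hydroperoxides and restrains ferroptosis, stood at 64.9 and 62.8 CPM and at 67.4 and 68.3 CPM. The resistant libraries of Gpx4 were both slightly higher (0.09 ± 0.07, adjusted p = 0.564). Per kilobase Gpx1 (219 RPKM) was far above Gpx4 (38.2 RPKM), and among the transferases Gsto1 (70.2 RPKM) and Gstp1 (32.6 RPKM) were above Gstt2 (2.12 RPKM) and Gstm1 (0.617 RPKM). The log2 changes of these 4 ran from -0.52 ± 0.43 for Gstm1 to 0.16 ± 0.15 for Gstt2. Mgst2, a microsomal transferase, had 6 and 4 reads in sensitive and 0 and 3 reads in resistant libraries. Of 22 other tested glutathione and thioredoxin genes 1 fell and 0 rose (4.55% called, near the 3.73% of all genes tested). This was Glo1, the glyoxalase that detoxifies methylglyoxal with glutathione, at 81.5 and 70.5 CPM against 59.8 and 59.4 CPM (-0.36 ± 0.08, adjusted p = 0.0147 in edgeR). Glo1 lost its call with DESeq2 (adjusted p = 0.0974) and when either resistant library was left out (0.0654 without replicate 1 and 0.0938 without replicate 2), and its change was -0.24 without sensitive replicate 1.

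In the thioredoxin system 1 of 5 tested genes was called, against 3.73% of all genes tested. Txnrd1 encodes the cytosolic thioredoxin reductase, a selenoprotein that passes electrons from NADPH to thioredoxin. It stood at 197 and 199 CPM in the sensitive pair, against 166 and 165 CPM in the resistant pair. The replicates nearly coincided within each line, and the lines were apart. The level was 1.20-fold lower (198 ± 1.78 against 165 ± 0.673 CPM, n = 2, log2 change -0.26 ± 0.06, adjusted p = 0.0147 in edgeR). The call was lost when either resistant library was left out (adjusted p = 0.201 without replicate 1 and 0.262 without replicate 2), while the change stayed between -0.27 and -0.25. Txnrd1 lies on chromosome 10 at 82833951 to 82897712.

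Its substrate Txn1, cytosolic thioredoxin, stood at 264 and 234 CPM in the sensitive pair, against 234 and 245 CPM in the resistant pair (-0.05 ± 0.06), with overlapping lines. Txnip, which binds and inhibits thioredoxin, stood at 60.1 and 67.9 CPM and at 67.1 and 69.0 CPM (0.09 ± 0.07, adjusted p = 0.579). Of its exonic bases, 19.4% overlap an antisense gene. The mitochondrial pair, Txn2 and Txnrd2, differed by 0.01 ± 0.06 and -0.12 ± 0.10. Per kilobase Txn1 (232 RPKM) was the most abundant gene of this system and Txnrd2 (4.89 RPKM) the least.

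NRF2 binds antioxidant response elements, and promoters were searched for their core letters, TGACNNNGC, on both strands within 250 bases before each annotated start (RefSeq, GRCm38.p6). Of the 43 genes with a row, 37 had a promoter entry, and 7 of the 37 held a match (18.9%), against 1410 of 10218 genes of the table with an entry (13.8%). Over all promoter entries the share was 10.2%. These shares are a description. Hmox1, Gclc, Gsr, Gstt2, Prdx6 and Aldh2 had no entry. The 7 matches are shown to let their letters be compared, as read on the strand of the gene, with capitals for the match. Those that begin with GC are matches on the opposite strand.
Nfe2l2: TGACTCCGC
Gclm: GCACCGTCA
Txnrd1: GCTTTGTCA
Prdx1: GCTGAGTCA
Sod1: GCGTGGTCA
G6pdx: GCTCAGTCA
Aldh9a1: TGACTAGGC
Txnrd1 was the only one of these 7 genes called in edgeR. Its match lies in 1 of 3 annotated promoters, at chr10:82858956-82859205 on the plus strand, and begins 92 bases before the start of that transcript. The whole window is shown because, among the promoters searched, it was the single one of the list with both a match and a called change.
Txnrd1 promoter: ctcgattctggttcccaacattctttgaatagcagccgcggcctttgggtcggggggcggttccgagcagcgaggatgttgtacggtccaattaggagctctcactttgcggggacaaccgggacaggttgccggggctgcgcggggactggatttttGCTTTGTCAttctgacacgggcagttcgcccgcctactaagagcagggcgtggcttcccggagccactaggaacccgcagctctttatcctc
No other motif was searched, and the letters of the element overlap those of AP-1 sites. Sequence outside these windows was not searched, so a gene without a match may hold the letters elsewhere. A match is a description of the letters, and binding was not measured.

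The peroxiredoxins, thiol peroxidases that remove hydrogen peroxide, most of them with the help of thioredoxin, were strongly expressed in both lines, with no call. Of 6 tested 0 were called in edgeR, DESeq2 or limma-voom, 0 had an unadjusted p below 0.05, and the libraries of the lines overlapped for all 6. Prdx1, the leading member at 167 RPKM, stood at 538 and 464 CPM in the sensitive pair, against 503 and 530 CPM in the resistant pair. The sensitive libraries bracketed both resistant ones (log2 change 0.04 ± 0.07), and without sensitive replicate 1 Prdx1 was called higher (0.15, adjusted p = 0.0141) with only the resistant pair to give the spread. The other log2 changes were 0.03 for Prdx2, 0.01 for the mitochondrial Prdx3, 0.01 for the endoplasmic reticulum form Prdx4, -0.05 for Prdx5 and -0.06 for Prdx6. Of the exonic bases of Prdx5, 19.1% overlap Trmt112 on the other strand.

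Catalase was the called gene among the enzymes that remove superoxide and peroxide without thiols. Cat, the peroxisomal enzyme that splits hydrogen peroxide, stood at 106 and 113 CPM in the sensitive pair, against 87.1 and 90.4 CPM in the resistant pair. Both resistant libraries were lower. The level was 1.23-fold lower (109 ± 4.60 against 88.8 ± 2.31 CPM, n = 2, log2 change -0.30 ± 0.06, adjusted p = 0.0135 in edgeR). The call was lost with DESeq2 (adjusted p = 0.0750) and when either resistant library was left out (0.229 without replicate 1 and 0.0997 without replicate 2), with values between -0.34 and -0.26 when a library was left out. Cat lies on chromosome 2 at 103453849 to 103485160.

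The superoxide dismutases, which turn superoxide into hydrogen peroxide, were not called. Sod1, the cytosolic copper and zinc enzyme, stood at 184 and 201 CPM in the sensitive pair, against 193 and 181 CPM in the resistant pair (-0.04 ± 0.06). Sod2, the mitochondrial manganese enzyme, stood at 80.1 and 76.1 CPM and at 79.4 and 82.8 CPM (0.05 ± 0.07). Neither passed the test, and for both genes the lines overlapped.

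The pentose phosphate enzymes supply the NADPH that both thiol systems consume. Of 4 tested 0 were called by edgeR, by DESeq2 or by limma-voom, and 1 had an unadjusted p below 0.05. G6pdx, the rate-limiting enzyme, stood at 108 and 111 CPM in the sensitive pair, against 95.6 and 95.2 CPM in the resistant pair. The lines did not overlap, and the log2 change of -0.20 ± 0.06 was not called (adjusted p = 0.0990 in edgeR and 0.578 in DESeq2). Leaving out a library gave -0.22 to -0.18. G6pdx was called when either sensitive library was missing, with only the resistant pair to give the spread, and not otherwise. Of its exonic bases 13.6% overlap Ikbkg on the other strand. Pgd (-0.06), which makes NADPH in the next oxidative step, and Tkt (-0.05) and Taldo1 (-0.07), which rearrange the sugars, had small differences and were not called. Tkt was the most abundant of the 4 per kilobase (127 RPKM), with 932 and 964 CPM in the sensitive pair, against 938 and 896 CPM in the resistant pair.

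The aldehyde dehydrogenases oxidise reactive aldehydes in a reaction that yields NADH. They included 2 called genes of 3 tested, which moved in opposite directions, against 3.73% of all genes tested that were called. Aldh1b1 encodes a mitochondrial enzyme and stood at 16.6 and 17.7 CPM in the sensitive pair, against 10.2 and 11.3 CPM in the resistant pair. It was lower in both resistant libraries, by 1.59-fold (17.2 ± 0.735 against 10.7 ± 0.791 CPM, n = 2, log2 change -0.67 ± 0.12, adjusted p = 0.00371 in edgeR). DESeq2 gave an adjusted p of 0.0912. Its change ran from -0.75 to -0.60 when a library was left out, and it was called each time.

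Aldh2 encodes the main mitochondrial enzyme for acetaldehyde and was the called gene that rose. It stood at 314 and 312 CPM in the sensitive pair, against 367 and 371 CPM in the resistant pair. The replicates were close and the lines apart, at 313 ± 1.29 against 369 ± 3.09 CPM (n = 2), a 1.18-fold rise (log2 change 0.24 ± 0.05, adjusted p = 0.0196 in edgeR). The call was lost when either resistant library was left out (adjusted p = 0.236 without replicate 1 and 0.352 without replicate 2), with values from 0.23 to 0.25. Per kilobase Aldh2 (66.5 RPKM) was far above Aldh1b1 (6.07 RPKM). Aldh9a1, an enzyme of aminoaldehydes, differed by -0.04 ± 0.06. Aldh1b1 lies on chromosome 4 at 45799022 to 45804604 and Aldh2 on chromosome 5 at 121566027 to 121593824.

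**Figure D4:**
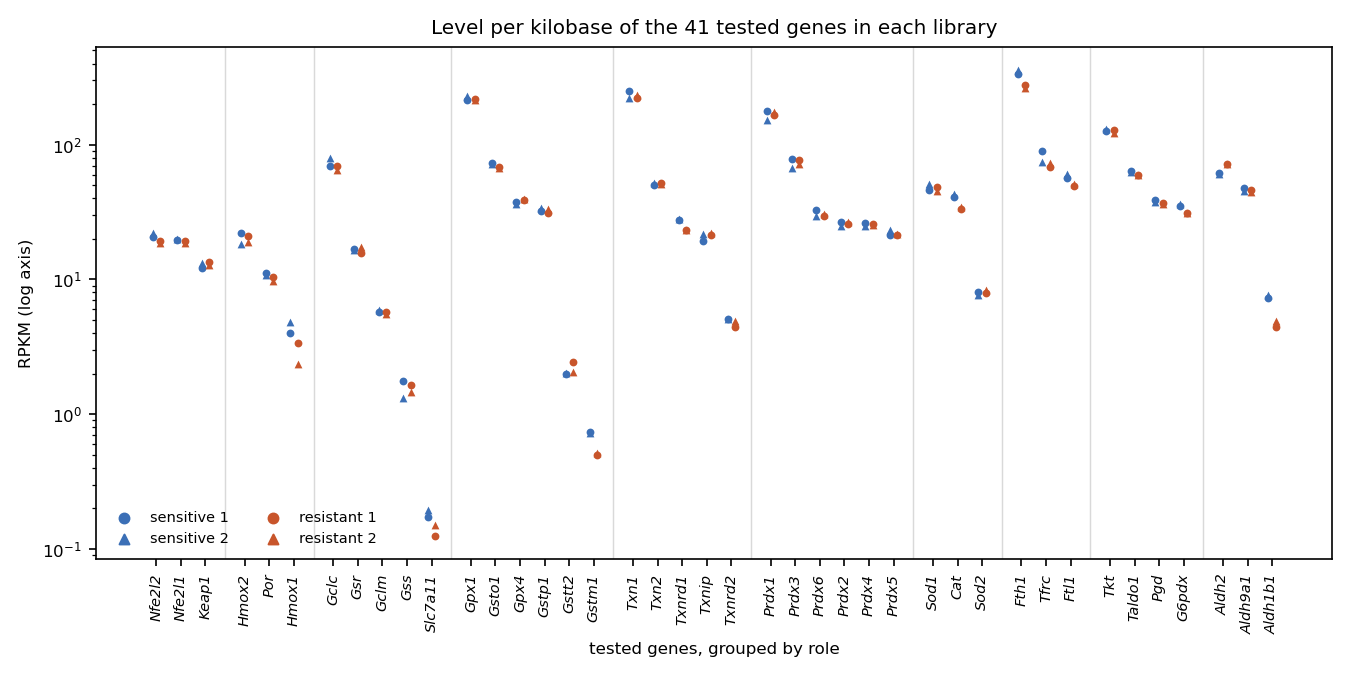
RPKM (reads per kilobase of annotated exon per 1000000 reads, log axis) of the 41 tested genes in each library, grouped by role. First come regulators, NRF2 markers with Hmox2 and Por, glutathione supply, glutathione users and the thioredoxin system. Then come peroxiredoxins, dismutases and catalase, iron, pentose phosphate and aldehyde dehydrogenases. Levels span from 0.161 RPKM for Slc7a11 to 308 RPKM for Fth1, and the distance between genes is far larger than that between the lines.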

How the data were processed

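The authors deposited raw read counts for Ensembl genes, as whole numbers. The submitters' processing notes list, without an order, TopHat, HTSeq, Bowtie2, cutadapt 1.7, FastQC and limma, with GRCm38 and mm10 as builds. For the annotation release and strand setting, the answer is not given in the sources used here. No gene of the table had fewer than 4 reads over all libraries. Each of the 4 columns matched 1 library by title. The labels do not state whether the replicates of a line were separate cultures, and p-values then reflect only the spread between these libraries, which may be technical.

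Symbols, positions and exon lengths came from GENCODE M21 (16407 of 16591 identifiers matched). Counts were fitted with edgeR 4.0.16 in R 4.3.3 (quasi-likelihood, TMM, group alone, filterByExpr with a minimum count of 10 and total of 15), which left 11945 genes, with Benjamini-Hochberg adjustment over all of them and a threshold of 0.05. Standard errors come from the F statistic. Alternatives were RLE factors, library size only, no filter, DESeq2 1.42.0, limma-voom (limma 3.58.1), a replicate block and leaving out each library. The fit was run on simulated data with 50 genes changed at each fold. It recovered 22 of 50 at 1.25-fold, 41 at 1.5-fold and 49 at 2-fold, so small differences can be missed. The genes and lists were chosen with earlier results of these data known. Values per library are given for called genes, the 5 next by p and 22 key genes, and of other pathway lists the called members are named. Genes of those lists with an unadjusted p below 0.05 were named after their values were seen.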

Additional observations from a re-analysis of the deposited data

How the results depend on the processing

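Counts of calls depended on the test and on single libraries. DESeq2 called 201 genes in all, against 445 in edgeR, and 2 of the listed genes lower, Fth1 and Txnrd1, against 4. When 1 library was left out, the total ran from 270 to 1381, the listed genes called higher from 0 to 2 and those called lower from 2 to 9, with the highest totals without a sensitive library, where the spread rests on the resistant pair. The median log2 change of the listed genes, -0.05, was -0.04 with library size only and ran from -0.09 to -0.06 with a library left out. With the replicate block 595 genes were called, and Hmox1 joined the 4 listed genes called lower. The labels do not say whether replicate numbers shared by the lines pair the samples. The correlation of deviations across genes was -0.02, which shows no shared replicate effect but cannot settle the design. The calls in the list were the same with RLE factors, library size only, no filter and limma-voom. None of the called genes changed sign under any alternative run. Depth limits Nqo1, Mgst2, Slc7a11 and Gstm1, where the 4 libraries hold few reads.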

Other observations

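Genes that make or handle superoxide and peroxide outside the list, among them subunits of the phagocyte oxidase that B cells also carry, had a median log2 change of 0.10 over 15 tested. Of these 12 had a positive value, against 6082 of 11945 genes tested (49.1% of all genes were below 0). The libraries of 8 did not overlap between the lines (53.3%, near the 47.3% of all genes tested), and all 8 had higher values in resistant cells, a direction that 24.1% of all genes tested showed without overlap. The genes of the list share their libraries, so these counts are given as a description. None was called in edgeR, DESeq2 or limma-voom. In edgeR 4 of the 15 had an unadjusted p below 0.05, all with higher values, against 9.10% of all genes tested. Those 4 were the oxidase subunits Cybb (0.32 ± 0.15, adjusted p = 0.291) and Ncf4 (0.19 ± 0.08, 0.229) and the stress-induced sestrins Sesn1 (0.23 ± 0.09, 0.199) and Sesn3 (0.28 ± 0.12, 0.233). Cybb stood at 10.7 and 8.16 CPM in the sensitive pair, against 11.2 and 12.7 CPM in the resistant pair. These 4 were chosen after their values were seen.

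A further list around NADPH supply had 0 calls of 11 by edgeR, by DESeq2 or by limma-voom. Not all its genes make NADPH, since it also holds Pgls, Rpia and Rpe of the pentose phosphate pathway and the NAD kinases Nadk and Nadk2. In edgeR 4 of the 11 had an unadjusted p below 0.05, 3 lower and 1 higher, against 16.9% of all genes tested. The lower ones were Rpia (-0.19, adjusted p = 0.241), Mthfd1 (-0.14, 0.238) and Idh2 (-0.13, 0.291), and the higher one was Pgls (0.13, 0.270). The median log2 change was -0.02. A list of 12 ferroptosis genes, which shares Tfrc, Slc7a11 and Gpx4 with the genes of the report, had 0 calls in the same 3 tests. In edgeR 2 of the 12 had an unadjusted p below 0.05, near the 16.9% of all genes tested. They were Tfrc, with a lower value, and the polyamine acetyltransferase Sat1 (0.25, adjusted p = 0.244). The median log2 change of the 12 genes was -0.02.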
